A study of Mus musculus with 4 samples.

Results

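The 8 genes described here, Rgs1, Rgs2, Rgs3, Rgs10, Rgs11, Rgs14, Rgs16 and Rgs19, encode regulators of G protein signalling (RGS proteins). They were chosen from the 20 Rgs genes on the array with earlier results of these data known, so counts over them do not speak for the whole family. Each was found through the gene name or RefSeq accession of the array's probes. The 8 are among the 18539 genes that could be named on the array and are measured by 14 probes. Th2 cells are the CD4 helper T cells that make IL-4 and its relatives, and SH-2251 is a thioamide-related small compound that the study examined for its effect on Th2 cell differentiation. The question these genes address is how the machinery that ends G protein signals stood in Th2 cells grown in SH-2251 or in its absence, at rest and after the T cell receptor (TCR) was engaged again.

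All cells were splenic CD4 T cells of female C57BL/6J mice, isolated with a magnetic sorter. Every culture received 2 days of immobilized anti-TCR-β (3 µg/ml) with anti-CD28 (1 µg/ml), IL-4 (10 ng/ml) and IL-2 (2.5 ng/ml), and then 3 days of the same cytokines on a new plate. Control cells had no SH-2251, and SH-2251-treated cells had it throughout, at 1 µM in the first phase and 1 mM in the second according to the labels, whereas the study's methods give a lower dose and start from naive CD4 T cells. Resting cells were then left unstimulated, and restimulated cells were placed on immobilized anti-TCR-β for 4 h. This gives 4 conditions, each with 1 single-dye (Cy3) Agilent whole mouse genome array, so there was no replicate check and neither a test nor an SD between cultures. The age and number of the mice behind each culture are not given in the labels.

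RGS proteins speed up the hydrolysis of GTP by the alpha subunit of heterotrimeric G proteins, which lets alpha and beta-gamma subunits come together again and so shortens the signal of a receptor. In lymphocytes they are known for limiting the response to chemokines and other attractants, whose receptors mostly couple to Gi. The family is divided into subfamilies by sequence. Rgs1, Rgs2, Rgs3 and Rgs16 are members of the R4 subfamily, Rgs10 and Rgs14 of R12, Rgs11 of R7 and Rgs19 of RZ. Several are themselves early response genes, so their transcripts can move within hours of a stimulus.

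Signals are given as log2 intensity minus the 75th percentile of the same array, so that 0 stands for the signal of the probe at that percentile. The percentile corresponded to 499 to 614 intensity units, and by the scanner software's own flag 56.0% to 56.7% of 41174 probes per array stood well above background. All 4 arrays lay on 1 slide and were read in 1 scan, and no spot was saturated. The software marked the negative controls' net signal as out of range on 3 of the 4 arrays. A technical SD beside a value is the error the software estimates for the spots, and its median for a difference over all genes was 0.204 on the log2 scale. It covers error within the arrays and not the spread between cultures. Well above background on all 4 arrays were 5 of 5 CD4 T cell genes and 5 of 5 Th2 genes. The Th2 genes are Gata3, Il4, Il13, Ccr4 and Ccr8. The B cell genes Cd74, Ms4a1, Cd79b and Cd79a and 3 of 5 myeloid genes were so too. Being above background therefore does not by itself show the cell type. As these are bulk cultures, fewer cells of a type and less RNA per cell cannot be told apart.

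Of the 14 RGS probes, 13 stood well above background on all 4 arrays, and each of the 8 genes had at least 1 such probe. Where a gene had several probes, the one with the highest mean signal stands for the gene. Of the other Rgs genes the array carries 12, of which 2 (Rgs9 and Rgs12) were well above background on all 4 arrays. A further 9 of them (Rgs4, Rgs5, Rgs6, Rgs7, Rgs13, Rgs17, Rgs18, Rgs20 and Rgs22) were well above background on no array, and Rgs8 was so by 1 of its probes on the resting control array alone. Levels of different genes are not compared, since each probe has its own brightness.

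The promoters of the genes with the largest response to restimulation, Rgs2 and Rgs16, are shown from RefSeq (assembly GRCm38.p6), each as the 250 bases before the gene's start, 5′ to 3′ on the gene's own strand. Rgs2 lies on the minus strand at chr1:144004150-144004399 and Rgs16 on the plus strand at chr1:153740103-153740352. Capitals mark matches on either strand to AP-1 (TGANTCA), the cyclic AMP response element half-site (TGACG) or the NFAT core (GGAAA).
Rgs2: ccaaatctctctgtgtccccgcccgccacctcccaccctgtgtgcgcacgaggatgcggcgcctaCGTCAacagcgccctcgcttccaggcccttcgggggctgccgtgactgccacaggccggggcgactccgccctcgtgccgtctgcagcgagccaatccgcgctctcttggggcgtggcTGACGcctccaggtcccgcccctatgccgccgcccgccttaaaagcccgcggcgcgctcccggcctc
Rgs16: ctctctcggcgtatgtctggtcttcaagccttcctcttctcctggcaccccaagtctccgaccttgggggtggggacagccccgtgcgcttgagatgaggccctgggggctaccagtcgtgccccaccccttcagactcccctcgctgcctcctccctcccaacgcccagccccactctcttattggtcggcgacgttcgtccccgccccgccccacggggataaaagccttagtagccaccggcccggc
The Rgs2 window held 2 half-sites of the cyclic AMP response element, 1 on each strand, and no match to AP-1 or NFAT. No match to any of these motifs was found in the Rgs16 window. Over 32851 RefSeq promoter windows of the same length, 6.75% held the AP-1 letters, 17.8% the half-site and 55.6% the NFAT core. The Gfi1 core (AATC), which is left in lower case and is held by 69.0% of windows, was found at 2 positions of Rgs2 and at none of Rgs16. These are matches of letters and not sites of binding. Promoter windows were given for 5 of the 8 genes, in 8 windows. Rgs1, Rgs11 and Rgs14 were not among them.

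The largest differences among the 8 genes were those between restimulated and resting cells. Rgs2 and Rgs16 were at least 2-fold higher after 4 h of TCR engagement in both cultures, and Rgs11 was at least 2-fold lower in both. Rgs14 was at least 2-fold lower in SH-2251-treated cells and 1.75-fold lower in control cells. The count was thus 2 of 8 genes higher and 1 of 8 lower in control cells, beside 7.20% higher and 7.34% lower of the 12758 genes compared. In SH-2251-treated cells it was 2 of 8 higher and 2 of 8 lower, beside 7.09% and 6.98% of 12613 genes. The median difference of the 8 genes was -0.042 for control and -0.28 for SH-2251-treated cells, beside -0.064 and -0.051 over all genes compared.

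**Figure D1:**
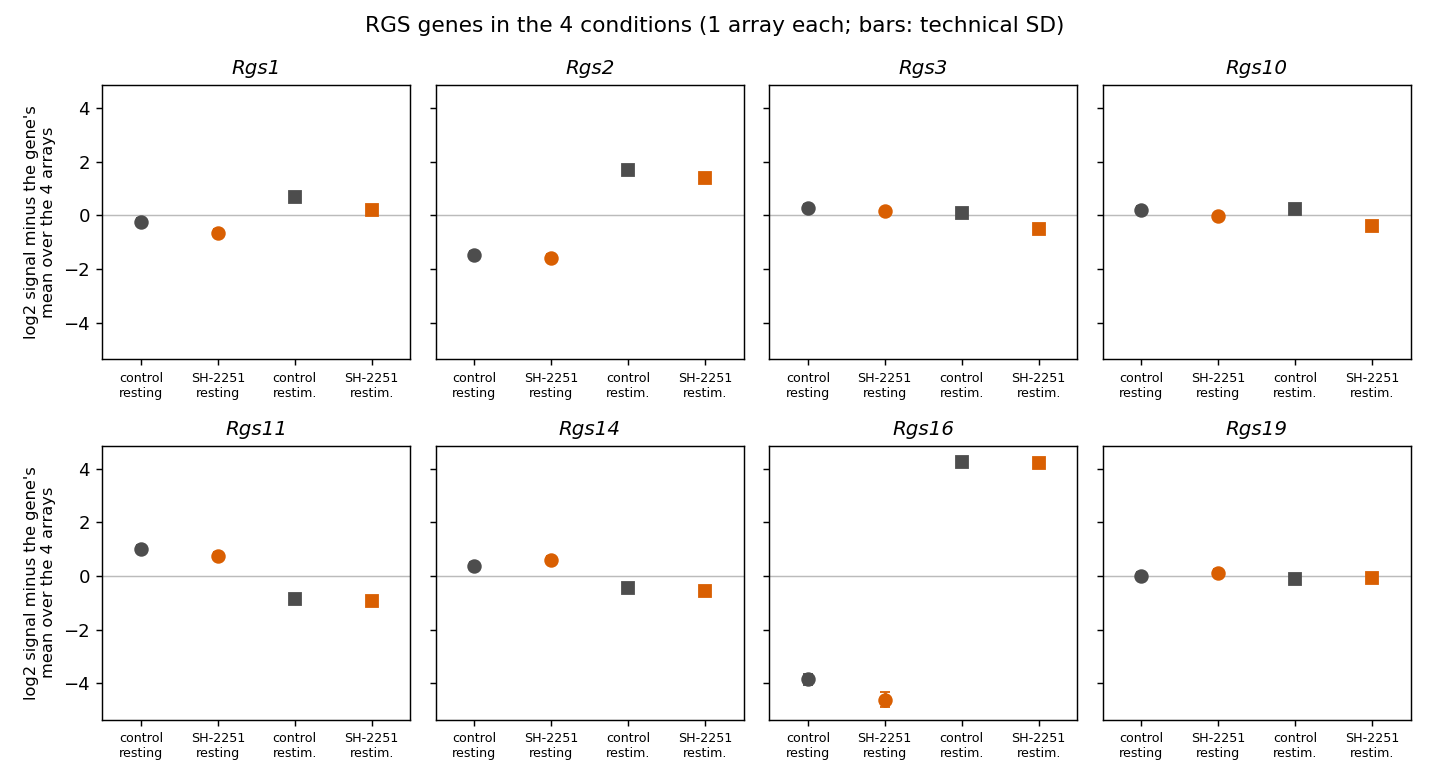
Signal of each of the 8 RGS genes in the 4 conditions, as log2 intensity relative to the array's 75th percentile minus the gene's own mean over the 4 arrays (y axis). Each point is 1 array, circles are resting and squares restimulated cells, grey is control and orange SH-2251, and bars are the technical SD, which is mostly smaller than the point. Rgs16 spans 8.86 log2 units between its lowest and highest condition, Rgs2 3.27, and Rgs19 0.22.

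Rgs16, a member of the R4 subfamily that acts on Gi and Gq alpha subunits, showed the widest range of the 8. Its probe read 45.6 intensity units in resting control cells and 29.5 in resting SH-2251-treated cells, against 11166 in restimulated control and 12679 in restimulated SH-2251-treated cells. On the relative log2 scale these are -3.62, -4.38, 4.48 and 4.44. Both restimulated arrays were far above both resting arrays. The difference was 8.10 (technical SD 0.246) in control cells, or 275-fold, and 8.83 (technical SD 0.314) in SH-2251-treated cells, or 453-fold.

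Among the genes measured on both arrays of a pair, Rgs16 had the third largest increase of 11855 in control cells, behind the chemokine genes Ccl4 (8.46) and Ccl3 (8.27), and ranked 1 of 11767 in SH-2251-treated cells, ahead of Ccl4 (8.31) and Inhba (8.17), which encodes activin A. The resting signal was dim though above background on both arrays, and the size of the response depends on how background is taken off. With the normexp correction the difference was 6.84 for control and 6.04 for SH-2251-treated cells, at ranks 2 and 5. That correction was pulled on the resting SH-2251 array by a few spots of uneven local background, and without them it gave 6.84 and 7.06, at ranks 2 and 3.

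The resting Rgs16 signal was 1.70-fold lower with SH-2251, a log2 difference of -0.76 with a technical SD of 0.343. This was the largest SH-2251 difference of any of the 8 genes in resting cells, and it was read from the dimmest pair of values. Its direction turned under normexp, to 0.71, and it was -0.32 when spots of uneven local background were left out of that correction. After restimulation the Rgs16 signals of SH-2251-treated and control cells differed by -0.039, which is within the technical SD of 0.204.

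Rgs2, an R4 member that acts mainly on Gq and is known as an early response gene of lymphocytes, was the other gene with a large increase. Its intensities were 434 and 441 in resting control and SH-2251-treated cells, and 3471 and 3318 after restimulation. The relative log2 values were -0.37, -0.48, 2.80 and 2.51, so both restimulated arrays lay above both resting ones. The increase was 8.97-fold in control cells (log2 3.17, technical SD 0.205, rank 50 of 11855) and 7.92-fold in SH-2251-treated cells (log2 2.99, rank 82 of 11767). With SH-2251 the difference was -0.11 at rest and -0.29 after restimulation, the first within and the second beyond the technical SD of about 0.20. A second Rgs2 probe was below background on all 4 arrays, at 6.99 to 11.4 intensity units, and gives no level. Averaging it in lowers the increase to 1.73 and 1.43 and turns the SH-2251 difference at rest to 0.23.

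Rgs1, an R4 member known for damping chemokine receptor signals in T and B cells, read lower with SH-2251 by a like amount in both states. Its values were 4.83 in resting control, 4.42 in resting SH-2251-treated, 5.76 in restimulated control and 5.25 in restimulated SH-2251-treated cells. The 4 conditions fell in a row in which each neighbouring step, between 0.41 and 0.51, was beyond the technical SD. Restimulated cells were 1.91-fold higher than resting ones in control and 1.78-fold higher in SH-2251-treated cells, short of 2-fold in both. The latter, a log2 difference of 0.83, became 1.05 under normexp, past 2-fold, and 0.77 under normexp without the uneven spots. SH-2251-treated cells held 75.3% of the control signal at rest and 70.1% after restimulation, log2 differences of -0.41 and -0.51.

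Rgs3, an R4 gene with several transcript forms, was measured by 5 probes that did not move together. The brightest, which carries accession NM_019492, read 1.32, 1.18, 1.15 and 0.51 in resting control, resting SH-2251-treated, restimulated control and restimulated SH-2251-treated cells. Its first 3 conditions did not differ beyond the technical SD, and the last was lower. A second probe, 1 of 4 that carry accession NM_134257, read 1.03, 0.77, 1.09 and 0.80, with no difference between resting and restimulated cells beyond the technical SD.

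The other 3 Rgs3 probes, all of NM_134257, were lower after restimulation, by log2 differences of -1.11 to -0.98 in control and -1.38 to -1.37 in SH-2251-treated cells. Grouping these 3 was done after their values were seen. With SH-2251 all 5 probes read lower than control, by -0.26 to -0.04 at rest and by -0.63 to -0.29 after restimulation. At rest only the probe at -0.26 was beyond its technical SD (0.204), and the median of all genes was -0.055. The 5 probes share the same arrays and are not replicates. The position of each probe in the transcripts was not analysed here, so the probes that differ are named by accession only.

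**Figure D2:**
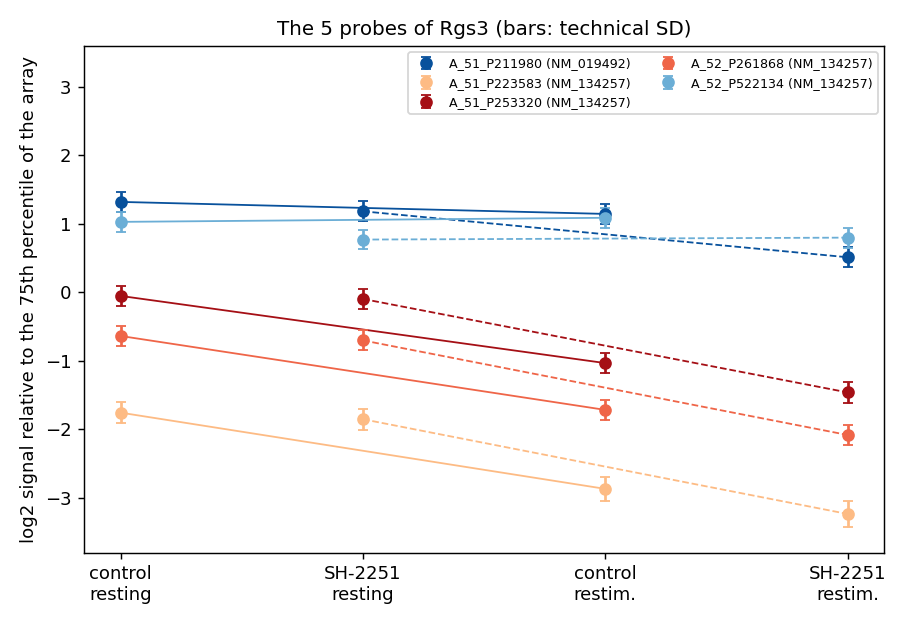
The 5 probes of Rgs3 in the 4 conditions (x axis), on the relative log2 scale (y axis, 0 at the array's 75th percentile), with bars for the technical SD. Solid lines join the control arrays and dashed lines the SH-2251 arrays, blue marks the 2 probes with little difference on restimulation in control cells (-0.18 and 0.06) and red to orange the 3 probes that were lower (-1.11 to -0.98).

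Rgs10, a small R12 member that acts on Gi-type alpha subunits, was at the same level in resting and restimulated control cells and lower with SH-2251. It read 3.79 in resting control, 3.54 in resting SH-2251-treated, 3.81 in restimulated control and 3.18 in restimulated SH-2251-treated cells. Both SH-2251 arrays were below both control arrays. SH-2251-treated cells held 84.3% of the control signal at rest and 64.3% after restimulation, log2 differences of -0.25 and -0.64 with a technical SD of 0.204. The difference between resting and restimulated control cells was 0.026, and -0.046 after quantile normalization.

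Rgs14, an R12 protein that also carries a GoLoco motif with which it holds GDP-bound Gi alpha subunits, was lower after restimulation. It read 2.58 and 2.79 in resting control and SH-2251-treated cells and 1.77 and 1.65 in the restimulated ones. Both restimulated arrays were below both resting arrays. The log2 difference was -0.81 in control cells, 1.75-fold lower, and -1.14 in SH-2251-treated cells, 2.21-fold lower. The latter was -0.88 under normexp, short of 2-fold, and -1.12 without the uneven spots. With SH-2251 the difference was 0.21 at rest and -0.12 after restimulation, and the first was -0.0091 under normexp and 0.24 without the uneven spots.

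Rgs11, an R7 protein that works as a complex with the beta subunit Gnb5 and is known mainly from retina and brain, had the largest decrease of the 8. Its intensities were 1341 in resting control, 1224 in resting SH-2251-treated, 329 in restimulated control and 357 in restimulated SH-2251-treated cells. As relative log2 values these are 1.26, 0.99, -0.60 and -0.71. The signal was 3.63-fold lower after restimulation in control cells (log2 -1.86, technical SD 0.205) and 3.25-fold lower in SH-2251-treated cells (log2 -1.70). These decreases stood at rank 77 of 11855 and rank 84 of 11767 genes. Its partner Gnb5 differed far less, by -0.11 for control and -0.42 for SH-2251-treated cells. With SH-2251, Rgs11 differed by -0.26 at rest and -0.10 after restimulation.

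Rgs19, an RZ member first found as a partner of Gi alpha subunits, stayed within a narrow band in all 4 conditions. Its brighter probe read 2.26, 2.37, 2.15 and 2.18 in resting control, resting SH-2251-treated, restimulated control and restimulated SH-2251-treated cells. No step between neighbours in that order of levels was beyond the technical SD. Its other probe read 1.45, 1.56, 1.38 and 1.46 and differed from the first by at most 0.086 in any of the 4 comparisons. The gene's SH-2251 differences were 0.12 at rest and 0.032 after restimulation, and the first was -0.13 under normexp and 0.10 without the uneven spots.

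**Figure D3:**
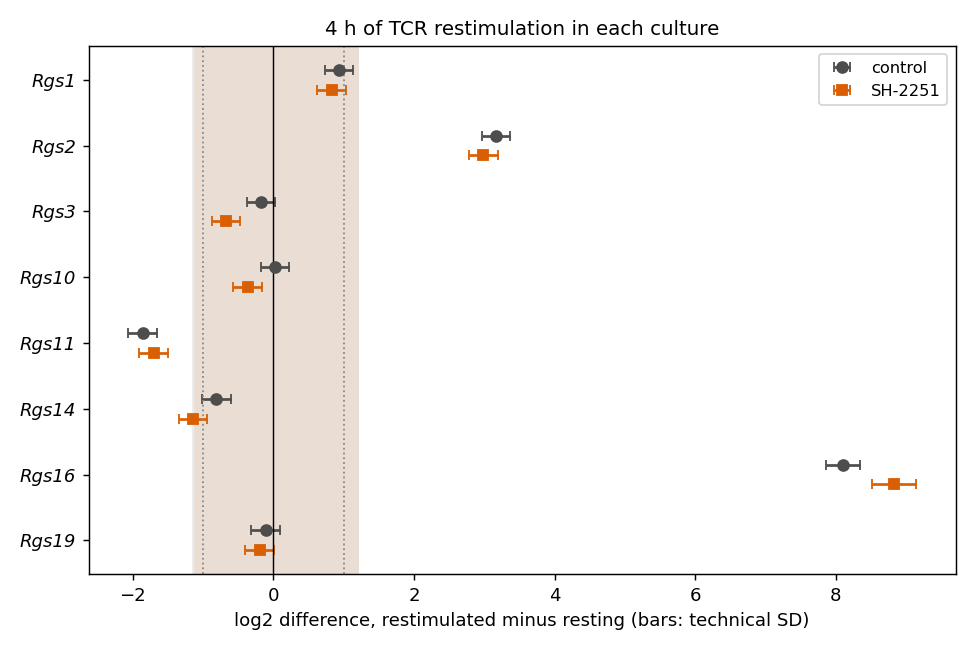
Restimulated minus resting log2 difference of each of the 8 RGS genes (x axis) in control (grey circles) and SH-2251-treated (orange squares) cells, with bars for the technical SD. Shaded bands span the 5th to 95th percentile of all genes (-1.15 to 1.22 in control cells) and dotted lines mark 2-fold. Rgs16 and Rgs2 lie to the right of the bands and Rgs11 to the left in both cultures, and Rgs14 of SH-2251-treated cells lies at the band's lower edge at -1.14.

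Set against control within each state, SH-2251 gave small differences in these genes. None of the 8 was 2-fold lower or higher in resting cells, where the shares of 12684 genes were 2.90% lower and 2.22% higher. None was so after restimulation either, with shares of 2.78% lower and 2.65% higher among 12623 genes. A count of 0 of 8 is near those shares. The median of the 8 was -0.19 at rest and -0.20 after restimulation, beside -0.055 and -0.063 over all genes.

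Within that range, 6 of the 8 genes (Rgs1, Rgs2, Rgs3, Rgs10, Rgs11 and Rgs16) read below control in both states, with exceptions under some alternatives. The restimulated value of Rgs16 became 0.0046 after median scaling and 0.023 after quantile normalization, its resting value 0.71 under normexp, and the resting value of Rgs2 0.23 under the mean of all probes. Beyond the technical SD in both states were 2, Rgs1 and Rgs10. The resting value of Rgs10 came within it after median scaling (-0.19) and quantile normalization (-0.14). The shares of all genes for these counts were not computed, so the counts are not read as particular to the 8. The medians over all genes were also below 0, and 24.65% of genes were at least as low as Rgs10 at rest. Among the restimulated values, those of Rgs10 (-0.64) and Rgs3 (-0.63) were farthest from 0, and stood at ranks 586 and 591 from the bottom of the 11812 genes measured on both arrays. The Rgs3 value is that of its brightest probe. Under the mean of all probes it was -0.42, nearer 0 than the -0.51 of Rgs1. Rgs1 was at rank 1481 of 11874 at rest and 900 of 11812 after restimulation.

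The SH-2251 difference after restimulation less that at rest was beyond its technical SD in 4 genes. It was -0.50 in Rgs3, -0.39 in Rgs10 and -0.33 in Rgs14, each with a technical SD of 0.289, and 0.72 in Rgs16 with one of 0.399. The Rgs3 value is that of its brightest probe and came to -0.30 under the mean of all probes. Under normexp with all spots, Rgs10 came to -0.11 and Rgs14 to -0.12, within the technical SD. The value of Rgs16 rests on its dim resting signals and was -0.80 under normexp and 0.23 under normexp without the uneven spots. In the other 4 genes it lay between -0.18 and 0.16. Over all 11518 genes the 5th to 95th percentile of this quantity was -0.43 to 0.46. The share of all genes beyond their own technical SD was not computed. The count of 4 is therefore not read as particular to the RGS genes. These differences share arrays with the comparisons of each state and are a description without replicates.

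**Figure D4:**
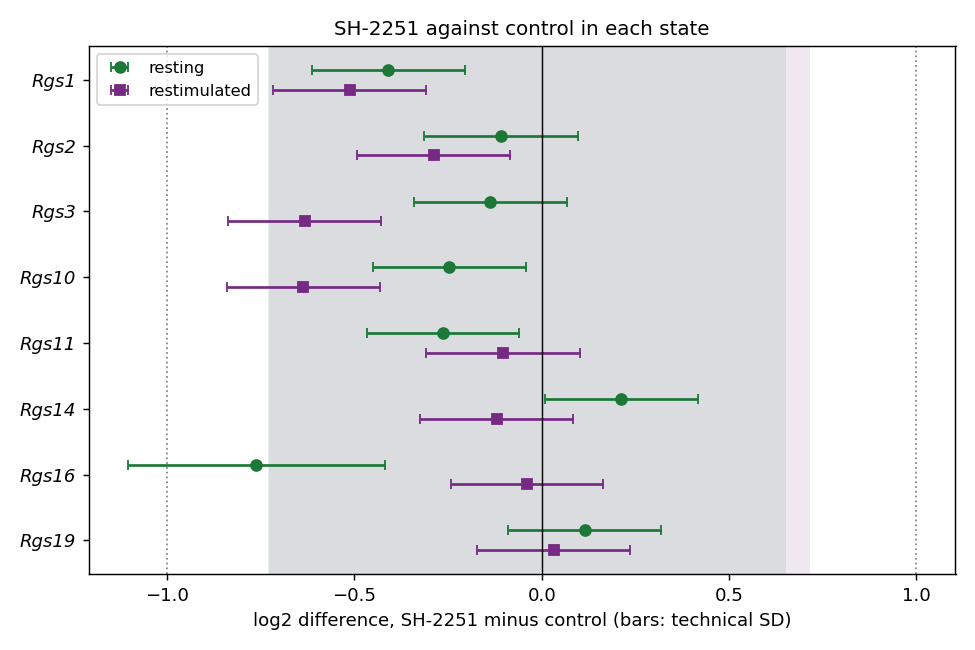
SH-2251 minus control log2 difference of each of the 8 RGS genes (x axis) in resting (green circles) and restimulated (purple squares) cells, with bars for the technical SD. Shaded bands span the 5th to 95th percentile of all genes (-0.73 to 0.65 at rest, -0.73 to 0.72 after restimulation) and dotted lines mark 2-fold, which no gene reaches. On this scale Rgs1 and Rgs10 lie below 0 by more than the bar in both states. For Rgs10 at rest this did not hold after median scaling or quantile normalization.

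Some markers of other cell types were 2-fold different in each of the 4 comparisons. The B cell genes Cd74, Ms4a1, Cd79b and Cd79a were well above background on all 4 arrays. After restimulation Cd74 (log2 difference 1.19) and Ms4a1 (1.21) were at least 2-fold higher with SH-2251 than in control, beside 0.62 for Cd79b and -0.15 for Cd79a. At rest the SH-2251 differences were 0.39 for Cd74, 0.74 for Ms4a1, 0.16 for Cd79b and -0.29 for Cd79a. On restimulation of SH-2251-treated cells Cd74 was 1.02 higher, against 0.22 in control cells. The part of these markers in the RGS values was not tested. Rgs13, known from germinal centre B cells, was below background on all 4 arrays.

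As linear signal relative to the array's percentile, summed over the list, myeloid genes came to 2.44 to 2.99 with Lyz2 and Itgam at background. The other 3 of the 5 (Adgre1, Csf1r and Cd14) were well above background on all 4 arrays. Adgre1 was the brightest, at relative log2 values of 1.20 to 1.51. The platelet genes Pf4, Ppbp and Gp9 were at background on every array, as was Rgs18, which is known from platelets. The remaining gene of that list, Itga2b, was dim but well above background on 2 arrays, resting SH-2251 (-4.49) and restimulated control (-4.51). NK and CD8 T cell genes summed to 1.79 and 1.86 in resting control and SH-2251-treated cells and to 4.46 and 3.88 after restimulation, with 2 of the 4 on the array (Klrb1c and Ncr1) at background. Among these, Cd8a was 1.45 higher on the log2 scale with SH-2251 at rest, and Nkg7 was higher on restimulation by 1.36 in control and by 1.17 in SH-2251-treated cells. The CD4 T cell genes summed to 93.0 to 106 on the 4 arrays, while the Th2 genes went from 73.0 and 67.0 at rest to 380 and 332 after restimulation. Such sums are led by the brightest probes. Of the single genes, Trat1 was 1.11 higher with SH-2251 after restimulation and Il13 differed by -1.32 with SH-2251 at rest. On restimulation Il4 (3.56 and 3.43), Il13 (4.77 and 5.53) and Ccr8 were at least 2-fold higher in both cultures.

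Of the RGS genes outside the 8, Rgs12, an R12 relative of Rgs10 and Rgs14, was the one at least 2-fold different. It read 2.76, 3.25, 1.33 and 2.10 in resting control, resting SH-2251-treated, restimulated control and restimulated SH-2251-treated cells. Restimulation gave -1.43 for control and -1.15 for SH-2251-treated cells, the direction of Rgs14. With SH-2251 it was 0.49 higher at rest and 0.77 higher after restimulation. The list of other RGS genes with the related scaffolds Axin1 and Axin2 had 4 genes above background, and its median on restimulation was -0.78 for control and -0.39 for SH-2251-treated cells. Its SH-2251 medians were 0.22 and 0.69.

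Of the 8 genes 3, Rgs1, Rgs2 and Rgs16, lie on chromosome 1. In RefSeq's gene order Rgs2, Rgs13, Rgs1, Rgs21 and Rgs18 follow one another, between Uchl5 and Brinp3. Of these neighbours, Rgs13 and Rgs18 were below background on all arrays while Rgs1 and Rgs2 were not. The remaining genes lie on chromosomes 2 (Rgs19), 4 (Rgs3), 7 (Rgs10), 13 (Rgs14) and 17 (Rgs11).

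For the 5 genes that span at least 1 log2 unit, the 3 genes nearest in pattern were taken over the 4 conditions, by Euclidean distance between log2 values centred on each gene's mean, among 11508 genes. Nearest to Rgs1 were Heatr3 (0.033), Cd27 (0.042) and Pus7l (0.063). Nearest to Rgs2 were Nfkbid (0.14), Ncs1 (0.17) and Nr4a2 (0.22). Rgs14 had Cep55 (0.036), Kif4 (0.036) and Knl1 (0.044), and Rgs11 had Scml4 (0.12), Oas1c (0.13) and Micall2 (0.14). For Rgs16 the distances were larger, at 0.45 for Ccl4 and 1.06 for both Mmp10 and Ccl3. With 4 points, such likeness describes these arrays only.

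The alpha subunits are the proteins on which RGS proteins act. Of 14 on the array 10 were compared, and after restimulation Gnaz (-2.08 in control, -1.70 in SH-2251-treated cells) and Gnal (-1.21 and -1.47) were at least 2-fold lower in both cultures. Gna15, a Gq-type subunit of blood cells, was -0.71 for control and -1.001 for SH-2251-treated cells. The main Gi subunits of T cells differed little, Gnai2 by -0.38 and -0.18 and Gnai3 by 0.25 and 0.46. None was 2-fold different with SH-2251, the farthest being Gnaq, a substrate of Rgs2, at 0.83 at rest and 0.95 after restimulation. Medians on restimulation were -0.29 and -0.13, and with SH-2251 -0.029 and 0.035.

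Beta and gamma subunits, which are freed when alpha binds GTP, had none counted as 2-fold different. Of 15 on the array, 10 or 11 were compared in each of the 4 comparisons. The brightest were Gng5, Gnb2 and Gnb1, with restimulation differences in control cells of 0.32, -0.31 and 0.38. Gng7 was above background on the resting SH-2251 array alone and has only bounds, at least 0.89 with SH-2251 at rest and at most -0.85 on restimulation with SH-2251, which leave a 2-fold difference possible. The list medians lay between -0.13 and 0.077.

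Proteins with GoLoco motifs, which bind GDP-bound alpha subunits as Rgs14 does, and the Ric8 chaperones of alpha subunits formed a list of 6. Gpsm2 was lower after restimulation, by log2 differences of -1.29 for control and -1.23 for SH-2251-treated cells. Gpsm1 was at -0.70 and -0.53 and Gpsm3 at -0.72 and -0.59, short of 2-fold. The chaperone gene Ric8a was at 0.62 and 0.39. None was 2-fold different with SH-2251, where medians were -0.037 and -0.19, and on restimulation they were -0.51 and -0.42.

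Receptor kinases and arrestins, which shut off the receptor itself, had 5 genes compared. Arrb1, beta-arrestin 1, read 5.08, 4.40, 2.80 and 2.33 in resting control, resting SH-2251-treated, restimulated control and restimulated SH-2251-treated cells. It was lower after restimulation by -2.28 and -2.08 on the log2 scale, and Grk6 by -1.06 and -1.07. Grk2 was at -0.15 and 0.017. None was 2-fold different with SH-2251, with Arrb1 at -0.68 and -0.48. Medians were -0.15 and 0.017 on restimulation and -0.17 and -0.12 with SH-2251.

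Effectors of G proteins (adenylyl cyclases, phospholipase C beta and the gamma form of PI3 kinase) had 15 genes compared. Adcy9 was lower after restimulation, by -1.13 for control and -1.30 for SH-2251-treated cells. Adcy4, a dim probe, was 1.15 higher in control cells and -0.03 in SH-2251-treated cells, so that it was the one effector 2-fold lower with SH-2251 after restimulation, at -1.63. Medians were -0.33 and -0.43 on restimulation and -0.094 and -0.038 with SH-2251.

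The phosphodiesterases that break down cyclic AMP and the kinase targets it reaches had 9 genes compared. In control cells none was 2-fold different after restimulation, with Pde4a just short at -0.997. In SH-2251-treated cells Pde4a (-1.04) and Pde4d (-1.05) were lower and Pde4b (1.00) higher, beside -0.77 for Pde4d and 0.66 for Pde4b in control cells. None was 2-fold different with SH-2251. Medians were 0.12 and 0.048 on restimulation and 0.077 and 0.084 with SH-2251.

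The last list held Gi-coupled attractant receptors, whose signals RGS proteins end. Of 14 compared, 5 were at least 2-fold lower after restimulation of control cells (Cxcr4 -1.46, Ccr7 -1.33, S1pr1 -1.11, S1pr4 -1.11 and Ltb4r1 -1.05) and 3 were higher (Ccr3 2.72, Ccr8 1.93 and Cxcr6 1.02). In SH-2251-treated cells 3 were lower (S1pr1 -2.26, Cxcr4 -1.42 and S1pr4 -1.23) and 4 higher (Cxcr6 3.25, Ccr3 1.64, Ccr8 1.62 and Gpr183 1.30). With SH-2251, Cxcr6 (-1.04) and Ltb4r1 (-1.25) were lower at rest. After restimulation S1pr1 (-1.78), Ccr3 (-1.63) and Cxcr3 (-1.03) were lower and Cxcr6 (1.20) and Gpr183 (1.13) higher. Medians were -0.29 and -0.048 on restimulation and -0.56 and 0.052 with SH-2251.

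**Figure D5:**
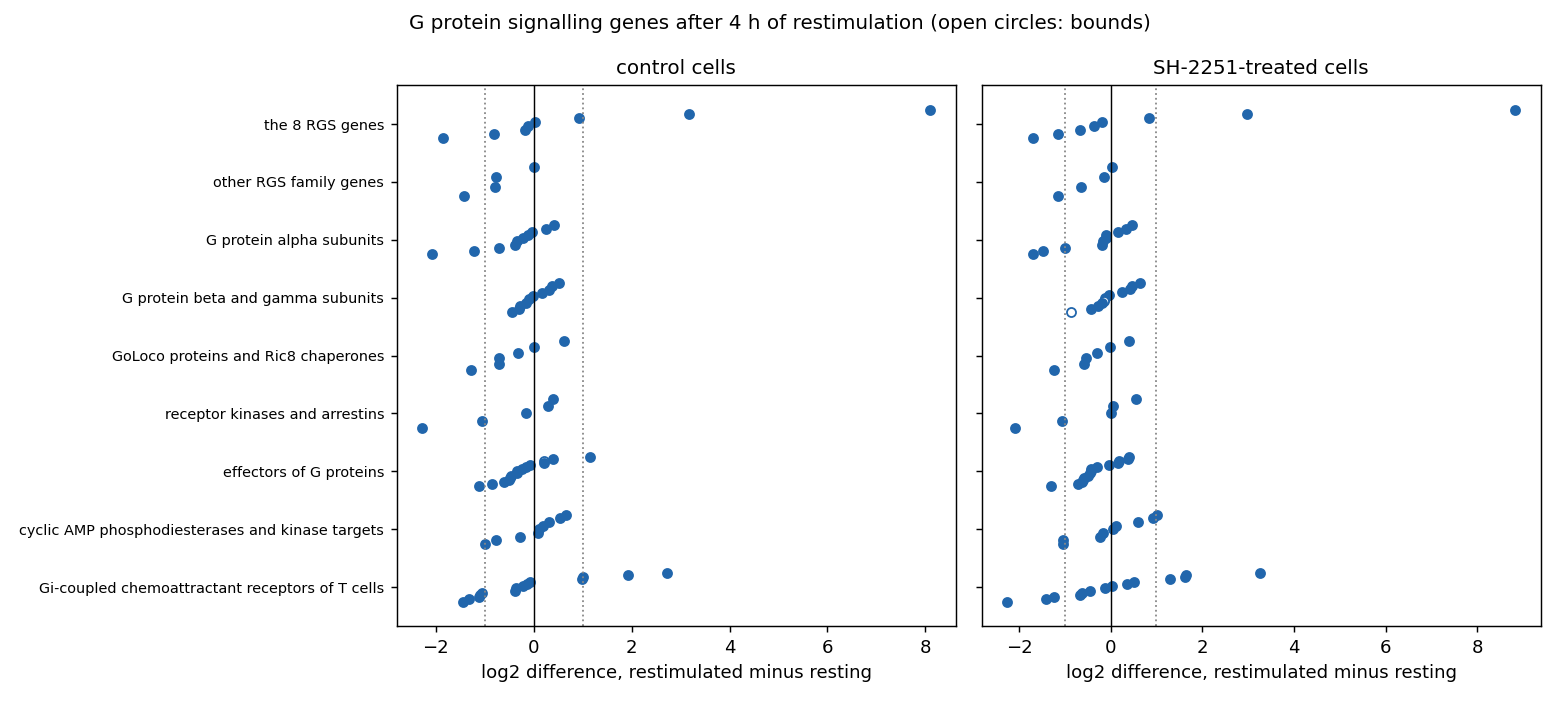
Restimulated minus resting log2 difference (x axis) of each gene above background in the 8 RGS genes and 8 lists of G protein signalling genes (rows), in control (left) and SH-2251-treated (right) cells. Each circle is 1 gene, an open circle is a bound, and dotted lines mark 2-fold. Rgs16 (8.10 and 8.83) lies farthest to the right in both panels, and the measured beta and gamma subunits lie between the dotted lines, with Gng7 as a bound at -0.85 on the right.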

How the data were processed

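RNA of the 4 conditions was labelled with a single dye (500 ng of total RNA) and hybridised to Agilent arrays. The authors deposited spot intensities of Agilent Feature Extraction (10.7 in the submitters' notes, 10.7.3.1 in the file headers), background-subtracted and detrended by that software, and a table of log2 values that they state were normalized in Subio Platform. On each array 99.6% of its values are the log2 intensities minus each array's 75th percentile, within 0.01. The same scale was computed here from the deposited intensities.

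Control spots and 77 to 106 outlier spots an array were dropped, and repeated spots averaged. Probes were named through RefSeq accessions (assembly GRCm38.p6, 27198 of 41174 matched, 66.1%). Genes were compared where either array of the pair had the probe well above background, with the dim side set to the lowest signal well above background there or to its own if higher. As each condition has 1 array, no test was made. A difference is called at 2-fold. The members and lists were chosen with earlier results of these data known. An item of a marker list is not reported here. Genes named are the 8 members, list genes past 2-fold, otherwise the 3 brightest, and the 3 nearest in pattern to each member spanning at least 1 log2 unit. Gnb5, Gnaq, Gnai2, Gnai3, Gpsm1, Gpsm3, Ric8a and Grk2 were named for their role, after their values were seen. The software's error estimates in the deposited files gave the technical SD. Alternatives were median scaling, quantile normalization, normexp (limma 3.58.1, offset 50, on median spot signals, since the planned mean signals were not in the columns used), the authors' table, other filters, mean of all probes and other fold thresholds. The procedure was tested on simulated data. Python 3.11.15, pandas 2.3.3 and R 4.3.3 were used.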

Additional observations from a re-analysis of the deposited data

Results flagged for a closer look

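Cxcr6, a Gi-coupled chemokine receptor among the genes whose signals RGS proteins end, had SH-2251 differences of opposite direction in the 2 states. It was at least 2-fold lower with SH-2251 in resting cells (log2 difference -1.04), whereas restimulated cells had at least 2-fold more (1.20), a gap of 2.23 on the log2 scale. Its values were 3.53 in resting control, 2.49 in resting SH-2251-treated, 4.54 in restimulated control and 5.74 in restimulated SH-2251-treated cells. Each value comes from 1 array and the difference was not tested.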

How the results depend on the processing

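Over 9 alternatives and 5 quantities for each of the 8 RGS genes, 329 of 360 values moved by less than the technical SD. The other 31 moved more, 16 of them under normexp, 8 under normexp without spots of uneven local background (an alternative chosen after seeing the data) and 7 under the mean of all probes. Not every alternative could move these values. Each member's chosen probe was well above background on every array, so the other filters returned the same values by construction. The authors' table is on the same scale, and keeping outlier spots left the values almost unchanged. Members with 1 probe could not move under the mean of all probes. The count of 329 is therefore not by itself a measure of robustness. No difference past 2-fold changed sign. Quantile normalization moved the median of all genes on restimulation to -0.107 (control) and -0.110 (SH-2251).

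On the resting SH-2251 array 4 spots were dimmer than the local background, by down to -4527 units. The mean background that normexp fitted there was -151.7, against 7.36 to 8.23 on the other arrays, and it was 7.42 without spots of uneven background. Under normexp SH-2251 had 162 genes past 2-fold downward and 694 upward at rest, then 161 and 149 after restimulation. Downward on restimulation there were 443 genes (control) and 1511 (SH-2251), with 1 member, Rgs11, in each. Without uneven spots these became 189 and 122 at rest, 159 and 149 restimulated, and 443 in either culture. With neither filter nor bound they were 798 and 623 at rest, 950 and 677 after restimulation, and 1421 downward on restimulation with SH-2251.

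At 1.5-fold, SH-2251 had 945 genes below control and 773 above it at rest, and 902 below and 871 above after restimulation. Restimulation itself had 2366 down and 1914 up (control), 2385 down and 1871 up (SH-2251). Members lower were then 1 with SH-2251 at rest (Rgs16), 2 after restimulation (Rgs3 and Rgs10), and 2 on restimulation in control cells (Rgs11 and Rgs14). Rgs3 is counted by its brightest probe. Under the mean of all probes it was -0.42 with SH-2251 after restimulation, short of 1.5-fold. On restimulation in control cells that mean was -0.66, past 1.5-fold. In SH-2251-treated cells Rgs3, Rgs11 and Rgs14 were lower on restimulation, and Rgs1, Rgs2 and Rgs16 were higher in both cultures. The gene counts above are out of 12684 (SH-2251 at rest), 12623 (SH-2251 after restimulation), 12758 (restimulation, control) and 12613 (restimulation, SH-2251) genes compared. At 3-fold, SH-2251 had 142 down with 101 up at rest and 144 down with 102 up after restimulation. Restimulation had 194 down with 379 up (control) and 145 down with 396 up (SH-2251). Of the members, Rgs11 was lower and Rgs2 and Rgs16 were higher past 3-fold on restimulation in both cultures. These counts follow from the threshold.

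No paired analysis was possible because each condition has 1 array and the labels carry no replicate numbers. For the same reason no array was left out. The number of arrays limits the precision of every value, and dim probes such as Rgs16 at rest depend most on the background correction.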
